A study of Mus musculus with 2 samples.

Results

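The genes described here are 32 genes of cholesterol and fatty acid synthesis, given as a list of names with no cutoff on a measured value, of 20923 genes tested in the mouse embryonic ureter. They comprise 17 sterol synthesis enzymes, 6 regulators and transport proteins and 9 fatty acid enzymes. Every one of them had a probe well above background. Ureters of NMRI mouse embryos at E13.5 were compared on 2 two-colour arrays, each hybridised with RNA of 1 mutant pool and 1 control pool. The mutant pools carried Fgfr2(fl/fl) and Fgfr1(fl/?) with the transgene Pax2-cre/+. Cre recombinase thus removes Fgfr2, a fibroblast growth factor receptor, in cells in which the transgene is or was active. In these cells it also acts on floxed alleles of Fgfr1, another such receptor. Pax2 is a gene of the nephric duct and its derivatives. The control pools carried Fgfr2(fl/?) and Fgfr1(fl/?) without Cre. The question mark stands for a wild-type or a floxed allele, so Fgfr1 was not fixed in either group. Embryos of differing Fgfr1 genotype may have entered a mutant pool. The labels do not give the number of embryos per pool. The pools of array 1 were female, with mutant RNA labelled in Cy5, and those of array 2 were male, with mutant RNA labelled in Cy3, so sex, dye and array cannot be told apart.

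A ratio below is the log2 ratio of mutant over control on 1 array, given for array 1 and then array 2, and a level is a log2 intensity that can be compared between pools but not between genes. With 2 arrays the number of samples limits the precision, and an exact sign-flip test over them cannot give a two-sided p under 0.5. The p-values below therefore come from limma, fitted across all genes. No spot was saturated, and 67.9% to 77.0% of probes were well above background per channel. Ratios scattered more on array 2 (SD 0.325 over all genes) than on array 1 (SD 0.208). The 2 probes of Fgfr2 had ratios of 0.27 and 0.057, and of 0.081 and 0.091. Probes of Fgfr1 had ratios of 0.026 and 0.51, of 0.17 and -0.16, and of 0.27 and -0.44. The sources used here do not place these probes relative to the floxed segments, so they do not check the deletion.

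Cells make cholesterol from acetyl-CoA through mevalonate, farnesyl diphosphate, squalene and lanosterol, and they make fatty acids from the same acetyl-CoA through malonyl-CoA. Both routes are switched on by the SREBP transcription factors, which Scap carries from the endoplasmic reticulum for cleavage when sterols are low and which the Insig proteins hold back when sterols are high. In embryos cholesterol also serves as the covalent modifier of hedgehog proteins, and Sonic hedgehog is a signal that the ureteric epithelium sends to its mesenchyme.

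Among the 32 genes, 15 were lower in the mutant pool on both arrays (46.9%), 2 were higher on both (6.25%) and 15 had opposite signs (46.9%). Over all genes tested, 21.4% were lower on both arrays, 22.1% were higher on both and 56.5% had opposite signs. Normalising by median centring alone left 38.1% of all genes lower and 15.5% higher on both arrays, and it put 25 of the 32 genes lower and 1 higher. In RNA of a whole tissue, fewer cells of a type cannot be told apart from less RNA per cell. The median ratio over the 32 genes was -0.12, and over all genes it was 0.0044. In the limma fit none of the 32 genes passed an adjusted p of 0.05 (each was at 0.99997), where 0.0287% of all genes did, all of those higher in the mutant. Without adjustment 3 of the 32 fell under 0.05 (9.38%, against 4.04% of all genes), with Tm7sf2 and Stard4 lower (1.43% of all genes) and Fads2 higher (2.61% of all genes). None was called under any of 8 other settings with a test, in which the lowest adjusted p was 0.86. The differences below are therefore descriptions of these 4 pools.

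**Figure D1:**
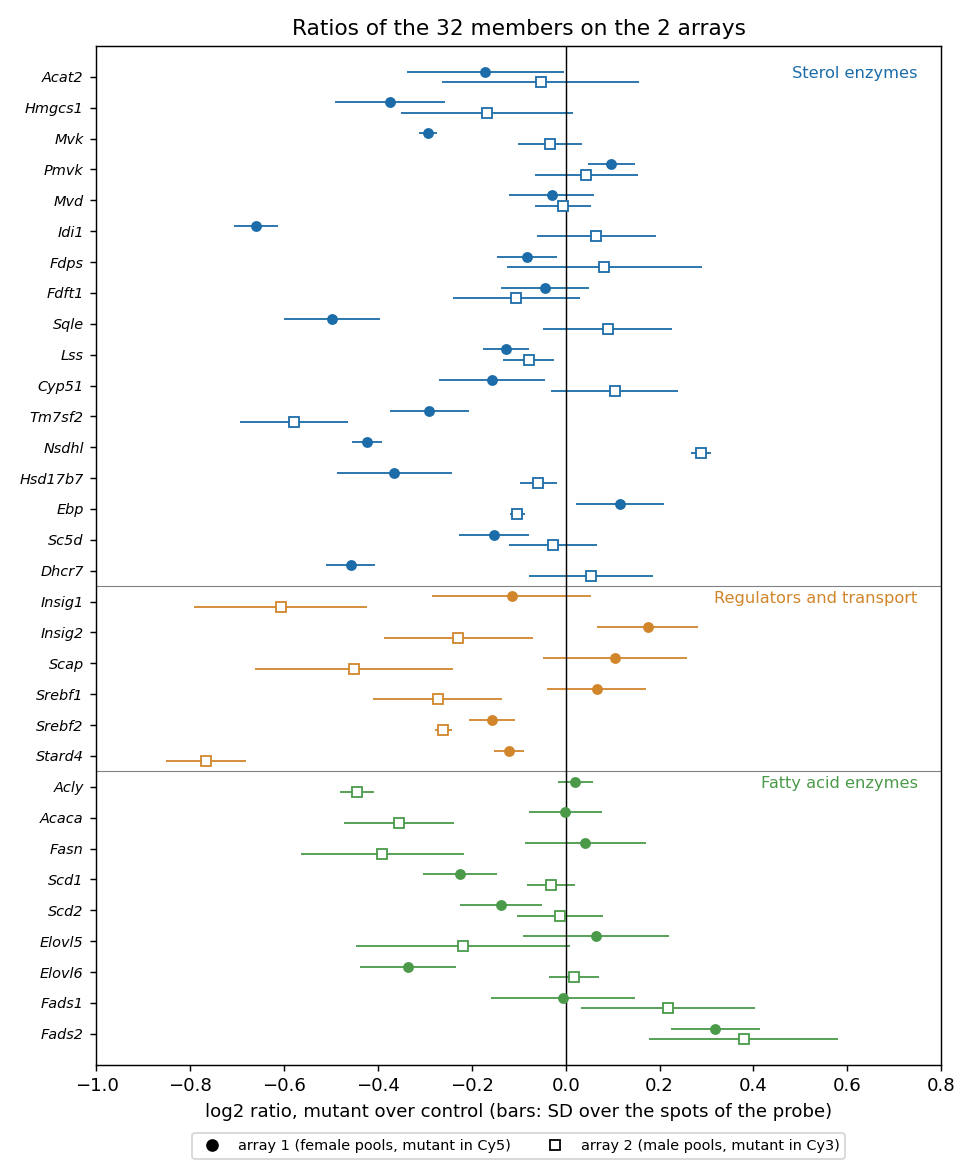
Log2 ratios of mutant over control (x axis) for the 32 genes (rows, grouped by role), with filled circles for array 1, open squares for array 2 and bars for the SD over the spots of the probe. On array 1, 15 of 17 sterol enzymes lie left of 0, and on array 2 all 6 regulators and transport genes do.

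The separate groups differed in which array carried the lower values. Of the 17 sterol enzymes, 15 were lower in the mutant on array 1 and 10 on array 2, with group medians of -0.17 and -0.027. Of the 6 regulators and transport genes, 3 were lower on array 1 and 6 on array 2, with medians of -0.025 and -0.36. Of the 9 fatty acid enzymes, 5 were lower on array 1 and 6 on array 2, with medians of -0.00067 and -0.032. Over all genes, 50.1% were lower on array 1 and 49.2% on array 2. Averaged over the arrays, the group medians were -0.10 for sterol enzymes, -0.19 for regulators and transport and -0.13 for fatty acid enzymes, and each stayed below 0 under all the normalisations compared. Between these medians of mean ratios, sterol minus fatty acid enzymes came to 0.025. Taken within each array, the difference between the group medians was -0.17 on array 1 and 0.0044 on array 2 (SD 0.12, n = 2). Its sign depended on the array and on how the arrays were combined, so these data give no order of the sterol and fatty acid enzymes.

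The promoters of 6 genes that recur below are shown because SREBP factors act together with NF-Y at genes of these routes, and NF-Y recognises the letters CCAAT. Each run is the 250 bases before the gene start, read 5′ to 3′ in the direction of the gene, from RefSeq on GRCm38.p6. Capitals mark CCAAT, which reads ATTGG where it lies on the other strand, and in Hmgcs1 also one match to TCACNCCAC, the letters searched as a sterol regulatory element.
Hmgcs1: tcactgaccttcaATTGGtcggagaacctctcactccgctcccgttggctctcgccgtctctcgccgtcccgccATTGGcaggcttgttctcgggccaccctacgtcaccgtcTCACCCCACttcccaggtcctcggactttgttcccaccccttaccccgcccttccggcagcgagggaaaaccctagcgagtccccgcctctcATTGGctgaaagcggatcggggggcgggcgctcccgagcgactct
Idi1: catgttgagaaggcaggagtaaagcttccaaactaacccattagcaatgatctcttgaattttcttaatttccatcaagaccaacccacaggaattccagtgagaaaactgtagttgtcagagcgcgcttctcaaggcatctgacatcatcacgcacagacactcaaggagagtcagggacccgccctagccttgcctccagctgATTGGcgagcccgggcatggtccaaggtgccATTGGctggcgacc
Tm7sf2: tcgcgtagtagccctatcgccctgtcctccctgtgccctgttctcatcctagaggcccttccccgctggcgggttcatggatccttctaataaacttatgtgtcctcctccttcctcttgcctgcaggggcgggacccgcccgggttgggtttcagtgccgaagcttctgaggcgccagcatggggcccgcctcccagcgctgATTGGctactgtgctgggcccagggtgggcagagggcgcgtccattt
Insig1: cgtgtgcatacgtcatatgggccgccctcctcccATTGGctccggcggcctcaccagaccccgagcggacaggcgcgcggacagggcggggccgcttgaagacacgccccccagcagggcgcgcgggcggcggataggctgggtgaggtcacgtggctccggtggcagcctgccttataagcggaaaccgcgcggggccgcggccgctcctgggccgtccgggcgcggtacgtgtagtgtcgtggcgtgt
Fasn: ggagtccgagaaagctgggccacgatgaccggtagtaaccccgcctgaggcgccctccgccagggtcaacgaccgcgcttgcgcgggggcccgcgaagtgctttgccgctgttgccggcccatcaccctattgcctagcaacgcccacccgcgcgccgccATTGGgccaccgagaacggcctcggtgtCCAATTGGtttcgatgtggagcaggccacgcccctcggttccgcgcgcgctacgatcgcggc
Fads2: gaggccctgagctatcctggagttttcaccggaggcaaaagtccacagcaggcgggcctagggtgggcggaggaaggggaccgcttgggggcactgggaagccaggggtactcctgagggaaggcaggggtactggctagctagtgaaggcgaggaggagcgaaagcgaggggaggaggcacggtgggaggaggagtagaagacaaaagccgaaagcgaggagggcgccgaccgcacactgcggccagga
The Hmgcs1 stretch lies at chr13:119690101-119690350, that of Idi1 at chr13:8885356-8885605 and that of Insig1 at chr5:28071162-28071411, each on the plus strand. The Tm7sf2 stretch lies at chr19:6067851-6068100, that of Fasn at chr11:120824548-120824797 and that of Fads2 at chr19:10101504-10101753, each on the minus strand.

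RefSeq windows from 250 bases before to 50 after a start were found for 25 of the 32 genes, with 1 window for 20 of them and several for 5. No window was used here for Fads1, Scd1, Sqle, Fdps, Fdft1, Scd2 and Stard4. On either strand, CCAAT occurred in 13 of 14 sterol enzymes, 4 of 5 regulators and 3 of 6 fatty acid enzymes, and in 41.1% of all 27025 genes with a window. Counted by window, it occurred in 21 of 33 windows of these genes and in 37.4% of all windows. Hmgcs1 had 4 such boxes, 1 of them past the start and so not shown, Fasn had 3, of which 2 overlap, and Idi1 had 2. In Tm7sf2 a single box began 47 bases before the start, and in Insig1 a single box began 216 bases before it. The Sp1 letters GGGCGG occurred in 13 of 14, 5 of 5 and 2 of 6 genes of the 3 groups, and in 38.2% of all genes. The E-box letters CACGTG occurred in 6 of the 25 genes and in 8.09% of all genes, and TCACNCCAC in 1 of the 25, Hmgcs1, and in 1.44% of all genes. Fads2, the gene with the highest mean ratio, had no CCAAT in its window. Nor did Acat2, Scap, Acaca and Elovl6, whose mean ratios were -0.11, -0.17, -0.18 and -0.16. These matches describe the letters of the windows and do not show binding.

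**Figure D2:**
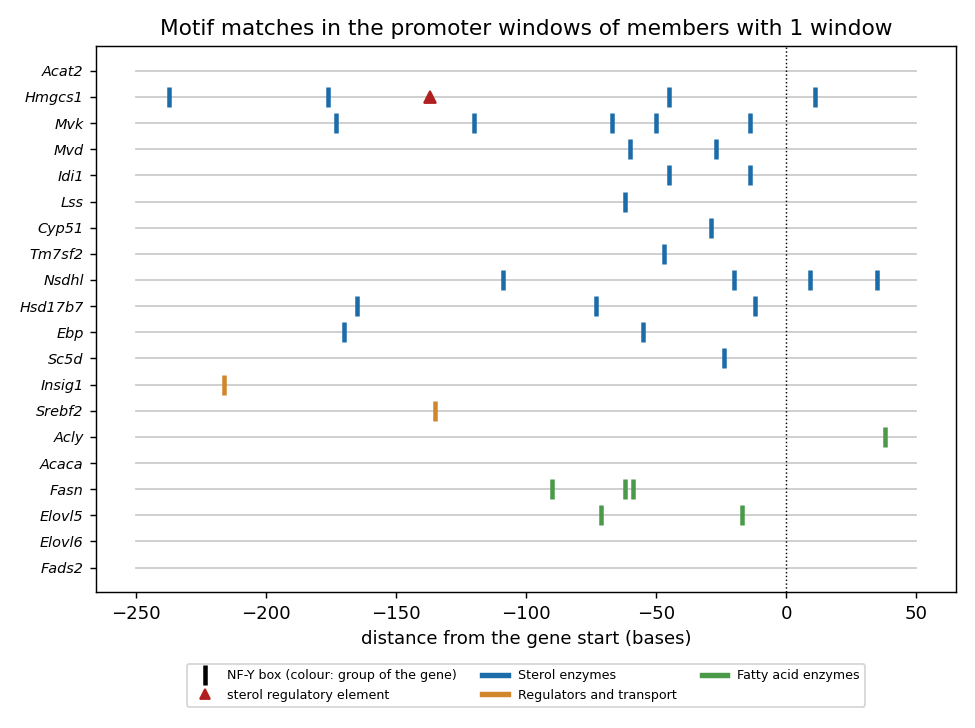
Positions of CCAAT (bars, coloured by group) and of the sterol regulatory element letters (triangle) along the promoter windows of the 20 genes with 1 window, by distance from the gene start in bases (x axis). Of the 20 windows, 16 hold a CCAAT box, most of them within the sterol enzymes.

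The enzymes from acetyl-CoA to farnesyl diphosphate numbered 7, of which 4 were lower on both arrays and 1 was higher on both. Hmgcs1 makes HMG-CoA, a precursor of mevalonate. Its level was 14.56 and 14.60 in the mutant pools, against 14.94 and 14.77 in the control pools. Its ratios were -0.37 and -0.17, a mean of -0.27 ± 0.15 (SD, n = 2), or 0.828-fold. Both mutant pools lay below both control pools, although on array 2 the ratio was no larger than the SD over its spots (0.18). Such a separation was also found in genes with small ratios, as in Fdft1 (-0.045 and -0.11). It held for Acat2, Mvk, Lss, Hsd17b7 and Acaca too, and no share of all genes is given for it. A second, much dimmer probe of Hmgcs1 gave -0.15 and -0.21. In mm9 the design places both probes on unplaced sequence of chromosome 13, the brighter at bases 114793 to 114852.

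Idi1, the isomerase that supplies dimethylallyl diphosphate, had the lowest ratio of the 32 genes on array 1. Its level was 12.12 and 12.48 in the mutant pools, against 12.78 and 12.41 in the control pools. The ratio of -0.66 on array 1, or 0.633-fold, exceeded the SD over spots of 0.046, while on array 2 it was 0.065 with an SD over spots of 0.13. Idi1 was the only one of the 32 genes at least 1.5-fold lower on array 1, where 0.315% of all genes were. The mean over both arrays was -0.30 ± 0.51 (SD, n = 2), so the SD exceeded the mean, and the levels of mutant and control pools overlapped.

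The other 5 enzymes of this stretch stayed within 0.30 of 0 on each array. Acat2, which condenses acetyl-CoA, had ratios of -0.17 and -0.053. Mevalonate kinase, Mvk, had -0.29 and -0.034, and its second probe had -0.068 and -0.15. The next kinase, Pmvk, was the only sterol enzyme higher on both arrays, at 0.097 and 0.044, a mean of 0.071 that became -0.092 under median centring. Its second probe had opposite signs, -0.099 and 0.22. Mvd, the decarboxylase that forms isopentenyl diphosphate, had -0.030 and -0.0061. Fdps, the farnesyl diphosphate synthase, had -0.082 and 0.082, a mean near 0 (0.00024) that was below 0 under 4 of the other settings.

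Squalene and lanosterol are made by 3 of the enzymes, all lower in the mutant on array 1. Squalene epoxidase, Sqle, a control point of the later pathway, had a level of 13.56 and 13.66 in the mutant pools, against 14.06 and 13.57 in the control pools. Its ratio was -0.50 on array 1, beyond the SD over spots of 0.10, and 0.089 on array 2, within the SD over spots of 0.14. As for Idi1, the ratio was low on array 1 only, and the levels of the mutant and control pools overlapped. Squalene synthase, Fdft1, had ratios of -0.045 and -0.11, both within the SD over spots. Lanosterol synthase, Lss, had -0.13 and -0.079, both beyond it.

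Tm7sf2, a sterol reductase that acts on the double bond left after lanosterol demethylation, was the lowest of the sterol enzymes on average. Its level was 11.79 and 11.74 in the mutant pools, against 12.08 and 12.32 in the control pools. Both mutant pools lay below both control pools, and the mutant pools differed less from each other than the control pools did. The ratios were -0.29 and -0.58, each beyond the SD over spots (0.084 and 0.12). Their mean was -0.43 ± 0.20 (SD, n = 2), or 0.740-fold. Its 95% interval in the limma fit was 0.574 to 0.954 before adjustment (unadjusted p = 0.026). Of all genes tested, 1.0% had a mean ratio this low. The probe lies on chromosome 19 at bases 6062882 to 6062941 of mm9, and a dimmer probe of the gene gave -0.27 and -0.081.

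**Figure D3:**
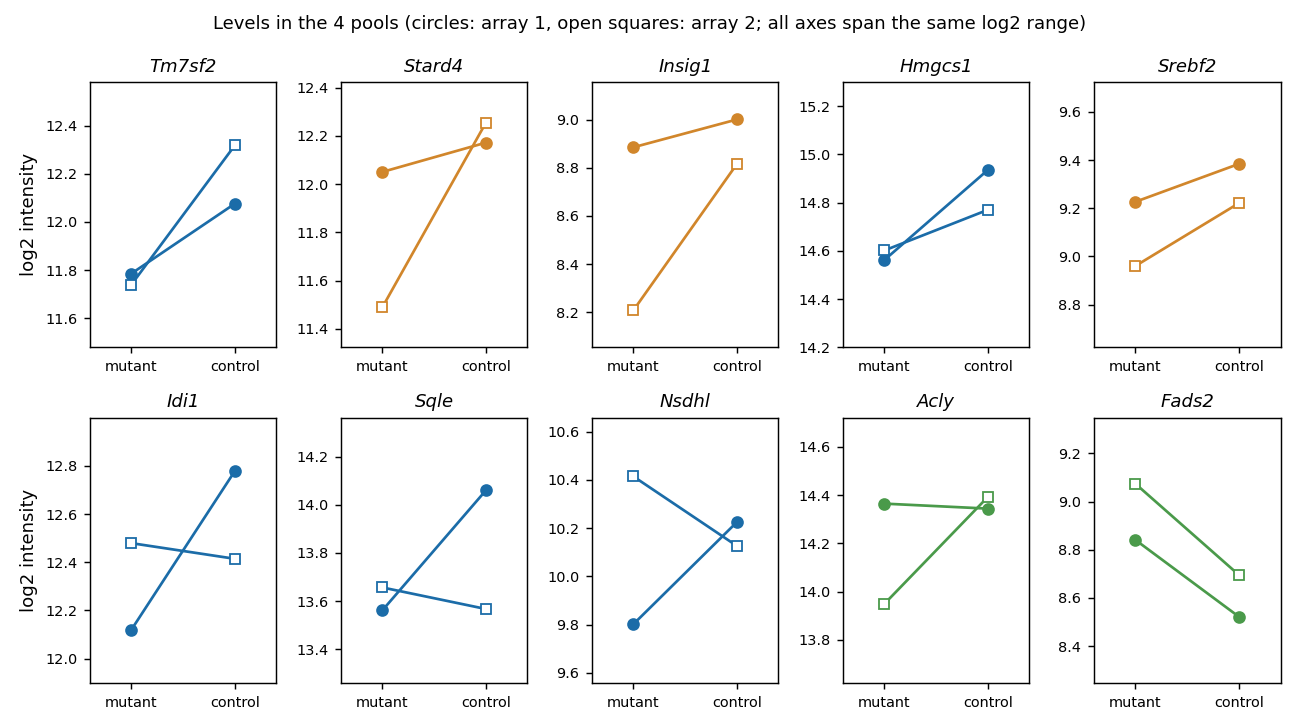
Log2 intensity (y axis) of 10 genes in the mutant and control pools, with lines joining the 2 pools of an array (filled circles array 1, open squares array 2) and panels spanning the same log2 range. In Tm7sf2, Stard4, Insig1, Hmgcs1 and Srebf2 the mutant pool is lower on both arrays, in Fads2 it is higher on both, and in Idi1, Sqle, Nsdhl and Acly the lines run in opposite directions.

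Among the other 6 enzymes between lanosterol and cholesterol, Nsdhl, Dhcr7, Cyp51 and Ebp had opposite signs on the arrays. Nsdhl, an X-linked C4-demethylation dehydrogenase, had a level of 9.80 and 10.41 in the mutant pools, against 10.23 and 10.13 in the control pools. Its ratios of -0.42 and 0.29 each exceeded the SD over spots (0.032 and 0.022), so the opposite signs were larger than the error within an array. A dimmer Nsdhl probe gave -0.44 and -0.025, alike on array 1 only. Dhcr7, the last reductase of the route, had a ratio of -0.46 on array 1 and 0.054 on array 2.

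Hsd17b7, the 3-ketosteroid reductase of C4 demethylation, had a level of 9.53 and 9.56 in the mutant pools, against 9.90 and 9.61 in the control pools. Its ratios were -0.36 and -0.059, a mean of -0.21 ± 0.22 (SD, n = 2), or 0.863-fold. The other 2 probes of Hsd17b7 gave -0.35 and -0.30, and -0.12 and -0.56. All 3 probes were thus lower on both arrays, with differing sizes. Cyp51, the lanosterol demethylase, had -0.16 and 0.10, and Sc5d, a sterol desaturase, had -0.15 and -0.027. Ebp, the X-linked sterol isomerase, had 0.12 and -0.10, a mean of 0.0066 that became -0.16 under median centring.

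The regulators were lower in the mutant on array 2 in each case, and Insig1 and Srebf2 were lower on both arrays. Insig1, the sterol-sensitive anchor of Scap and itself a target of SREBP, had a level of 8.88 and 8.21 in the mutant pools, against 9.0 and 8.82 in the control pools. The female mutant pool lay above the male control pool, so the groups overlapped. Its ratios were -0.12 and -0.61, and only the second exceeded the SD over spots (0.17 and 0.19). The mean was -0.36 ± 0.35 (SD, n = 2), or 0.778-fold, and 1.84% of all genes had a mean ratio this low. Insig2, the related anchor that is not induced by SREBP, had 0.17 and -0.23, and its dimmer probe had the opposite order, -0.18 and 0.20. Neither probe of Insig2 gives a direction.

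Srebf2 encodes SREBP-2, the factor chiefly responsible for sterol synthesis. Its level was 9.23 and 8.96 in the mutant pools, against 9.38 and 9.22 in the control pools. Within each array the mutant pool was the lower one, and across arrays the groups met near 9.22. The ratios of -0.16 and -0.26 both exceeded the SD over spots (0.050 and 0.018), with a mean of -0.21 ± 0.073 (SD, n = 2), or 0.865-fold. A dimmer probe of Srebf2 did not repeat this, at 0.078 and 0.019, so the 2 probes disagree in direction. Srebf1, which encodes the SREBP-1 factors of fatty acid synthesis, had 0.066 and -0.27. Scap, the escort protein of both, had 0.11 and -0.45, a mean of -0.17 ± 0.39 (SD, n = 2).

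Stard4, a soluble carrier that moves cholesterol between membranes, had the lowest mean ratio of the 32 genes by the brightest probes. Its level was 12.05 and 11.49 in the mutant pools, against 12.17 and 12.26 in the control pools. Both mutant pools lay below both control pools, the male mutant pool by far the most. The ratios were -0.12 and -0.77, each beyond the SD over spots (0.032 and 0.085), with a mean of -0.44 ± 0.46 (SD, n = 2), or 0.735-fold. The limma p before adjustment was 0.0498. The dimmer probe of Stard4 gave -0.18 and 0.023. With the probes of each gene averaged, Stard4 was at -0.26 and no longer the lowest, as Insig1 was at -0.36. Insig1 and Stard4 were the 2 genes at least 1.5-fold lower on array 2, where 2.3% of all genes were. With Idi1, 3 of the 32 genes were 1.5-fold lower on either array, against 2.52% of all genes, and none of the 32 was 1.5-fold higher on either array.

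**Figure D4:**
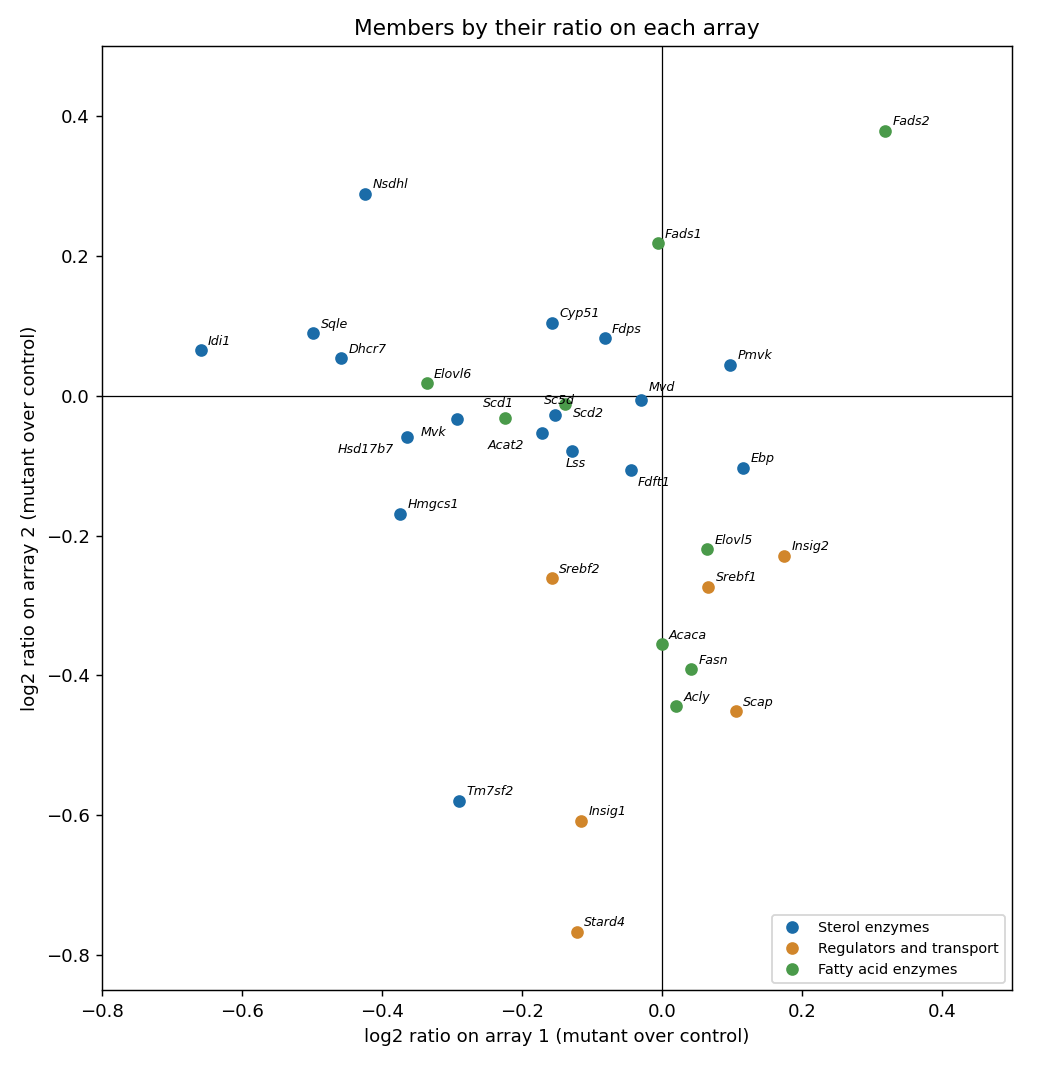
Log2 ratio of mutant over control on array 1 (x axis) and array 2 (y axis), 1 point per gene, coloured by group. Idi1, Sqle, Dhcr7 and Nsdhl lie far left and above 0, whereas Acly, Acaca, Fasn and Scap lie between -0.00067 and 0.11 on array 1 and between -0.36 and -0.45 on array 2.

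By their brightest probes, the first steps of fatty acid synthesis were near 0 on array 1 and lower in the mutant on array 2. Acly, which makes cytosolic acetyl-CoA from citrate, had a level of 14.36 and 13.95 in the mutant pools, against 14.34 and 14.39 in the control pools. Its ratios were 0.021 and -0.44, and the SD over spots was 0.037 on each array. A dimmer probe of Acly, in another part of the gene, was lower on both arrays, at -0.26 and -0.30. Acaca, the carboxylase that commits acetyl-CoA to fatty acids, had -0.00067 and -0.36, but a second probe, shifted by 1 base, had -0.16 and -0.10. The mean ratios of its 4 probes were from -0.20 to -0.13, so the direction was shared but the order of the arrays was not. Fasn, the synthase that builds palmitate, had 0.042 and -0.39. By the brightest probes, the medians of these 3 genes were 0.021 on array 1 and -0.39 on array 2. In the sterol enzymes the array 1 median was the lower one. This contrast depends on the probe, as the Acaca probe shifted by 1 base was lower on array 1 and the dimmer Acly probe differed little between the arrays.

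The desaturases and elongases gave mixed ratios. Scd1 and Scd2, which place the first double bond, had -0.23 and -0.032, and -0.14 and -0.012. Elovl6, which lengthens palmitate, had -0.34 and 0.018. Elovl5, which lengthens polyunsaturated chains, had 0.065 and -0.22. Fads1, the delta-5 desaturase, had -0.0060 and 0.22, a mean of 0.11 that became -0.024 under median centring.

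Fads2, the delta-6 desaturase that starts the synthesis of long polyunsaturated fatty acids, had the highest mean ratio of the 32 genes. Its level was 8.84 and 9.07 in the mutant pools, against 8.52 and 8.69 in the control pools. Both mutant pools lay above both control pools, as they also did for Pmvk, and no share of all genes is given for this. The Fads2 ratios of 0.32 and 0.38 exceeded the SD over spots (0.094 and 0.20), with a mean of 0.35 ± 0.042 (SD, n = 2), or 1.27-fold. Its 95% interval in the limma fit was 1.002 to 1.618 before adjustment (unadjusted p = 0.048). A dimmer probe of Fads2, at bases 10163229 to 10163288 of chromosome 19 in mm9, gave 0.062 and -0.15, against the brighter one at 10137760 to 10137819. The 2 probes therefore disagree in direction, and the exons and untranslated regions they lie in were not analysed here.

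Ratios scattered less over the spots of a probe than between the arrays. The median SD over spots was 0.092 on array 1 and 0.12 on array 2, whereas the median SD between the arrays was 0.19 and the highest 0.51. The ratio was beyond the SD over spots on array 1 for 22 of the 32 genes and on array 2 for 16. It was so on both arrays and in the same direction for 6. No share of all genes was set beside these counts, so they do not mark the 32 genes out. Of 48 probes of the 32 genes 47 were tested, 12 genes had more than 1 tested probe, and in 3 (Fads2, Insig2 and Srebf2) the probes disagreed in the sign of the mean.

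Other genes of the same routes were counted from further lists, none of whose members passed an adjusted p of 0.05. Of 10 other sterol synthesis genes, 2 were lower on both arrays, among them Ggps1, which makes geranylgeranyl diphosphate, at -0.29 and -0.31. None of the 10 was higher on both, and 9 were lower on array 1 but 3 on array 2. Msmo1, the methyl sterol oxidase, had -0.48 and 0.11, the same order as Idi1 and Sqle. Of 9 genes that cleave or turn over SREBP, 4 were lower on both arrays and 2 higher, all within 0.22 of 0 on average. Of 19 further fatty acid synthesis genes measured, 5 were lower on both arrays and 2 higher, with Hsd17b12, a reductase of chain elongation, lowest at -0.38 and -0.24.

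Genes of cholesterol uptake, export and storage were mixed, with 9 of 20 lower on both arrays and 6 higher. The highest of the list were Apoe, the lipoprotein component, with a mean of 0.55 ± 0.071, Abcg1, a cholesterol exporter, with 0.37 ± 0.027, and Npc2, which moves cholesterol out of lysosomes, with 0.34 ± 0.25 (SD, n = 2 each). Of 18 measured genes of fatty acid uptake and triglyceride handling, 6 were lower on both arrays and 6 higher, with Cd36 at 0.58 ± 0.54 and Fabp4 at 0.56 ± 0.40 the highest. Of 18 genes of fatty acid oxidation, 3 were lower and 3 higher on both arrays.

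**Figure D5:**
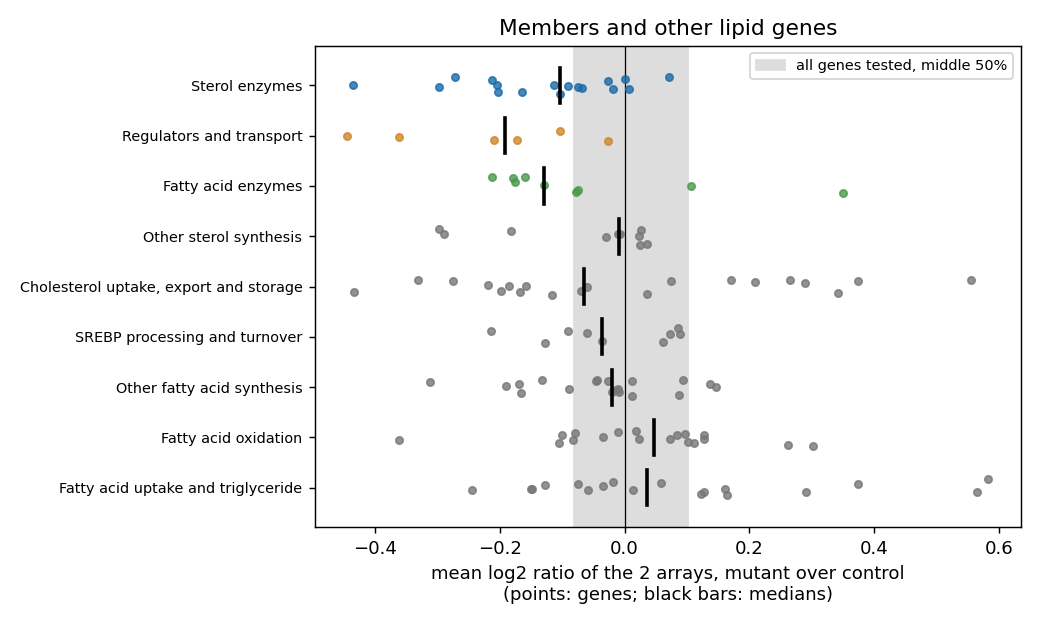
Mean log2 ratio of mutant over control over the 2 arrays (x axis) for the genes described here, in 3 coloured rows, and for 6 further lipid lists in grey, with black bars for medians and a shaded band for the middle 50% of all genes tested (-0.081 to 0.10). The medians of the 3 coloured rows lie between -0.19 and -0.10, and those of the further lists between -0.065 and 0.047.

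Markers of several cell types also had ratios away from 0 in the same pools. Of 13 measured markers of ureteric epithelium, 8 were lower on both arrays and 2 higher, with a median of -0.37. Those lower were Krt8, Krt18, Shh, Wnt7b, Wnt9b, Gata3, Elf5 and Ehf. The 2 higher were Upk3a (1.45 and 1.24) and Upk1b (0.49 and 0.54), while Cdh1, Epcam and Pax2 had opposite signs. The summed intensity of the 13 was 71974 and 65887 in the mutant pools, against 84050 and 87273 in the control pools. Most of each sum came from Krt18, with ratios of -0.23 and -0.52. Upk2 was not well above background. Of 9 markers of ureteric mesenchyme, 6 were lower and 2 higher, with a median of -0.25 and sums of 107409 and 111447 in the mutant pools, against 114949 and 121593 in the control pools. All 9 liver markers were higher in the mutant on both arrays, with sums of 7799 and 4926 in the mutant pools, against 2690 and 3299 in the control pools. Liver is a site of active sterol and fatty acid synthesis, and the part of liver RNA in the ratios above was not tested.

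Leukocyte markers were higher on both arrays in 7 of 9 cases, with sums of 33801 and 66983 in the mutant pools, against 28314 and 38317 in the control pools. Most of each sum came from the brightest marker, Itgam, whose ratios had opposite signs (-0.030 and 0.75). Among the leukocyte markers S100a8 and S100a9, the calprotectin subunits of neutrophils, rose (adjusted p = 0.014 each in limma) and were 2 of the 6 genes called in all. Erythroid markers were higher in 7 of 9 cases, with sums of 456080 and 430947 in the mutant pools, against 168390 and 345003 in the control pools. Most of each erythroid sum came from Hba-a1 and Hbb-y. Markers of neurons and glia were higher in 8 of 8 cases and those of skeletal muscle in 4 of 5. Of 6 measured markers of adrenal and gonad steroid cells, which use cholesterol to make hormones, 2 were higher on both arrays and 4 had opposite signs. Their median was 0.27 on array 1 but -0.048 on array 2. Their sums were 2821 and 1678 in the mutant pools, against 2071 and 1999 in the control pools, and Cyp17a1, a steroid hydroxylase, had ratios of 0.40 and -0.66. Amh was not well above background. Of the adipocyte markers, Adipoq, Cidec and Lep were not well above background. Of the 2 measured, Fabp4 was higher on both arrays (0.28 and 0.85) and Plin1 was lower on both (-0.052 and -0.016). Proliferation genes were at a median of -0.16 on array 1 but 0.10 on array 2, with sums of 114430 and 130476 in the mutant pools, against 134360 and 116981 in the control pools. The part of these markers in the ratios of the 32 genes was not tested.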

How the data were processed

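RNA of mutant and control ureter pools, 150 ng of each as labelling input per the labels' protocols, was measured on 2 two-colour Agilent arrays on 1 slide. Agilent Feature Extraction 10.7.3.1 quantified the scans, per the submitters' processing notes, and the design uses mm9 positions, per the file headers. The spot and local background signals are intensity values that the authors deposited without normalisation, per the file headers. The other file, the authors' deposited table, holds a score (a signed linear fold of each probe on each array). By correlation with the processed signals (0.973 and 0.991) it runs mutant over control. The median of each column was 1, while the sources used here do not give its centring.

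The background was corrected by normexp (offset 50) and each array normalised by loess with a span of 0.3 and control spots weighted 0, using limma 3.58.1 (R 4.3.3). Outlier-flagged spots were left out, the spots of a probe (4 per array) averaged, and the ratio of array 2 turned. Probes were tested where a share of their spots over 0.5 stood well above background in 1 group on both arrays (27493 of 39429 probes), and the brightest tested probe stood for its gene. Names were updated through RefSeq accessions, which matched 28328 probes. Ratios were tested against 0 with lmFit and eBayes over all 20923 genes (1 residual and 6.32 prior degrees of freedom), at a threshold of 0.05 after Benjamini-Hochberg adjustment. The number of embryos per pool is unknown, and the p-values rest on only 2 arrays. The variance behind each p-value is drawn mostly from all genes, given 6.32 prior against 1 residual degrees of freedom. Levels per channel are log2 intensity values computed after loess and Aquantile normalisation. Sums add the linear intensities of a list's measured genes. The procedure was tested on simulated data, in which unchanged genes made up more of the calls than the nominal share in most sets, so adjusted p-values may be too small.

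The 32 genes and the further lists were chosen with earlier results of these data known, so lists are given as counts and medians without tests. Full values are given for genes with the same sign on both arrays and a mean ratio beyond 0.2, those at least 1.5-fold on 1 array and those whose probes disagree in sign. Other genes are named where they are among the 3 of their list with the largest ratios the same way on both arrays. Some genes of these lists are not reported here. Msmo1, the levels of Sqle, Nsdhl and Acly and the 6 promoters were chosen after values were seen. The alternatives were the processed signals, median centring, no background correction, no filter on dim probes, a filter in both groups, the authors' table, the mean of a gene's probes, channels fitted separately, the regulators counted with the sterol enzymes, and each array alone.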

Additional observations from a re-analysis of the deposited data

Results flagged for a closer look

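For 15 of the 32 genes the female pools on array 1 and the male pools on array 2 had ratios of opposite sign. The difference between the arrays was not tested, since each sex is 1 array, and sex, dye and array cannot be told apart. Over all genes tested, 56.5% had opposite signs. Given as the ratio on array 1 minus that on array 2, the difference was negative for Idi1 (-0.72), Nsdhl (-0.71), Sqle (-0.59), Dhcr7 (-0.51), Elovl6 (-0.35), Cyp51 (-0.26), Fads1 (-0.22) and Fdps (-0.16). These include 6 sterol enzymes. It was positive for Scap (0.56), Acly (0.46), Fasn (0.43), Insig2 (0.40), Srebf1 (0.34), Elovl5 (0.28) and Ebp (0.22). These include 3 regulators and 3 fatty acid enzymes.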

How the results depend on the processing

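Under the 8 alternatives with a test, none of the 32 genes was called, and 249 of 256 single ratios kept their direction. The exceptions were Fdps, at -0.013 with processed signals, -0.17 with median centring, -0.00030 without background correction and -0.031 in the authors' deposited table, and, with median centring, Pmvk at -0.092, Ebp at -0.16 and Fads1 at -0.024. Against 6 genes called in all, 11 were called with processed signals, 12 with the filter in both groups, and 0 with median centring, without the filter on dim probes (which adds genes to the adjustment) and with channels fitted separately. At an unadjusted p under 0.05 those 3 settings gave 853, 1076 and 530 genes, against 845. Median centring gave 15 sterol enzymes, 5 regulators and transport genes and 5 fatty acid enzymes lower on both arrays, 0 sterol enzymes higher, and medians of -0.22 for sterol and -0.26 for fatty acid enzymes. Processed signals gave 0 sterol enzymes higher and a fatty acid median of -0.17. The authors' deposited table gave 0 sterol and 2 fatty acid enzymes higher, and averaging probes gave 0 sterol enzymes higher. All genes moved too. The share lower on both arrays was 38.1% with median centring, 25.2% with processed signals, 23.5% in the authors' table and 22.6% with averaged probes. In the fit used above it was 21.4%. With median centring the median ratio of all genes was -0.059 on array 1 and -0.078 on array 2. The cause of the differences between settings was not tested. With 1 array at a time the counts lower were 10 to 15 sterol enzymes, 3 to 6 regulators and transport genes and 5 to 6 fatty acid enzymes. The counts higher were 2 to 7, 0 to 3 and 3 to 4. The fatty acid median ranged from -0.032 to -0.00067 and the sterol minus fatty acid difference from -0.17 to 0.0044. The ratio within an array already pairs a mutant with a control pool, and fitting the 4 channels separately is the unpaired alternative. Signal over background kept 1 probe, of Fdft1, out of the test.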
